A study of Mus musculus with 65 samples.

Results

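The subject is IHO1 on meiotic chromosomes that lack HORMAD1. The members are the 1589 IHO1 peaks of wild-type testes and the 1860 IHO1 peaks of Hormad1KO testes, out of 7544 IHO1 peaks in 5 genotypes and 97260 peaks and hotspots in the 24 lists analysed. A peak counted as found in the other genotype where both intervals shared at least 1 bp. By that rule 495 wild-type peaks were shared and 1094 were wild-type only. In the Hormad1KO list 470 peaks were shared and 1390 were knockout only. The counts of shared peaks differ between the lists because 31 Hormad1KO peaks had 2 or more wild-type partners and 6 wild-type peaks had 2 or more Hormad1KO partners. The found share was 31.2% of all wild-type peaks (Wilson 95% interval 28.9 to 33.5) and 25.3% of all Hormad1KO peaks (23.3 to 27.3), and these are the background for every count of found peaks that follows.

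The study mapped meiotic proteins by chromatin immunoprecipitation and sequencing in mouse whole testis whose labelled cell type is L/Z, for leptotene and zygotene spermatocytes. Both genotypes are labelled C57BL/6JCrl, one wild-type and the other carrying Hormad1tm1.2Atot (Hormad1KO). All groups had the same synchronisation: male pups were fed WIN 18,466, which blocks retinoic acid, from 1.5 days of age for 7 to 10 days, received 1 injection of retinoic acid, and gave testes 8 days later at a labelled 80 to 95% of L/Z cells, which were fixed in 4% formaldehyde for 15 minutes. Spo11KO (Spo11tm1Mjn), Mei4KO (Mei4tm1Bdm), Prdm9KO (B6;129P2-Prdm9tm1Ymat/J) and Iho1KO (Iho1tm1.2Atot) mice, prepared in the same way, serve below for comparison. Both IHO1 lists had the IHO1 signal of Iho1KO subtracted, per the series' design text. The labels give 2 samples to each IHO1 group but 1 list holds each group, so no difference between the genotypes has a replicate check and none has a p-value. All intervals given reflect counting error alone, as if each peak were independent of the rest. The 2 IHO1 lists hold positions without strengths, and their sequencing depth is unknown. A peak missing from a list is therefore one not called there, at an unstated threshold. No expression data accompany these lists, so the labelled cell type was not checked against markers.

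IHO1 is a partner of MEI4 and REC114 in the machinery that lets SPO11 cut DNA in early meiosis. HORMAD1 is a HORMA-domain protein of the unsynapsed chromosome axis, to which IHO1 binds, and the axis also holds SYCP3, a structural protein that runs along its length. DMC1 is the recombinase loaded on the single-stranded DNA that follows a break, so DMC1 hotspots mark where breaks are made, and CTCF is a DNA-binding protein that anchors chromatin loops.

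The wild-type-only class contains promoters that lay under CTCF, HORMAD1 and IHO1 together, and 3 of them are shown as examples of sites where IHO1 was called in the wild type and not in Hormad1KO. They were chosen after the values were seen: the 250 bases before the start site lie wholly inside a wild-type-only IHO1 peak away from every DMC1 hotspot and inside a CTCF peak, the IHO1 peak also overlaps HORMAD1, and the bases hold CCAGNNGGC, a core of the CTCF motif, on either strand. No other promoter met these terms. The sequences are from RefSeq on GRCm38.p6, 5′ to 3′ on the gene's strand, with the core in capitals. Vmn2r29, which encodes a vomeronasal receptor, starts downstream of chr7:7278290-7278539 (minus strand), Triap1, an inhibitor of apoptosis, of chr5:115340981-115341230 (plus strand), and Samd11 of chr4:156255343-156255592 (minus strand).
Vmn2r29: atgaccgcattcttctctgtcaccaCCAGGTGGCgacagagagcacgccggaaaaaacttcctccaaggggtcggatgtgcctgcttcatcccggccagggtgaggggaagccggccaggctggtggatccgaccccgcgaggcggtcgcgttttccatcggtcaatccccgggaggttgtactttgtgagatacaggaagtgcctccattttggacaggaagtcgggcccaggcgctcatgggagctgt
Triap1: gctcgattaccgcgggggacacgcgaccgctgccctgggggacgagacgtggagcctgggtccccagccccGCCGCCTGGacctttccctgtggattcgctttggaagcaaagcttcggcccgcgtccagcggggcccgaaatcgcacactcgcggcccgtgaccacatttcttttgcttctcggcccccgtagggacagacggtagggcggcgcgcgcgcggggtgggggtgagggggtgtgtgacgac
Samd11: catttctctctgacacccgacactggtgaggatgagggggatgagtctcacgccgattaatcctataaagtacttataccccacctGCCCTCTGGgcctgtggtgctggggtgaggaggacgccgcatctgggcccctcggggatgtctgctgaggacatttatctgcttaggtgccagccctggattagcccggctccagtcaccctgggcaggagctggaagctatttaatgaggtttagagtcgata
The core began 225 bases before the start in Vmn2r29, 179 in Triap1 and 164 in Samd11. The CTCF peaks over them scored 4.05, 2.78 and 0.625 in the authors' units. Of all 32851 RefSeq promoters, 7.31% (7.04 to 7.60) held the core in these 250 bases. The share was 11.1% (10.2 to 12.1) of the 4244 promoters touched by a CTCF peak and 10.0% (6.05 to 16.1) of the 140 touched by a wild-type-only IHO1 peak, and the last interval includes the share of all promoters. A match of these letters is a description and not a shown binding site.

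The classes divided by the kind of site. Knockout-only peaks lay almost entirely at breaks: 94.4% (93.1 to 95.5) were at wild-type DMC1 hotspots and 92.9% (91.5 to 94.2) at MEI4 peaks of Hormad1KO. Wild-type-only peaks lay mostly elsewhere, with 17.9% (15.8 to 20.3) at hotspots, 9.96% at Hormad1KO MEI4 peaks and 43.5% (40.6 to 46.5) at CTCF peaks. Shared peaks resembled the knockout-only peaks in this respect, with 90.7% (87.8 to 93.0) of those in the wild-type list at hotspots and 10.9% (8.46 to 14.0) at CTCF. Wild-type-only peaks thus exceeded shared peaks at CTCF by 32.6 percentage points (Newcombe 95% interval 28.4 to 36.4; a difference is called where its interval excludes 0). Much of this excess goes with the different hotspot shares of the classes: it was 4.96 points (0.0758 to 10.8) at hotspots and 8.92 (-5.80 to 22.3, not called) among the 898 wild-type-only and 46 shared peaks away from them. For scale, 1.62% of all 32676 CTCF peaks held a wild-type IHO1 peak and 0.496% held a Hormad1KO one.

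**Figure D1:**
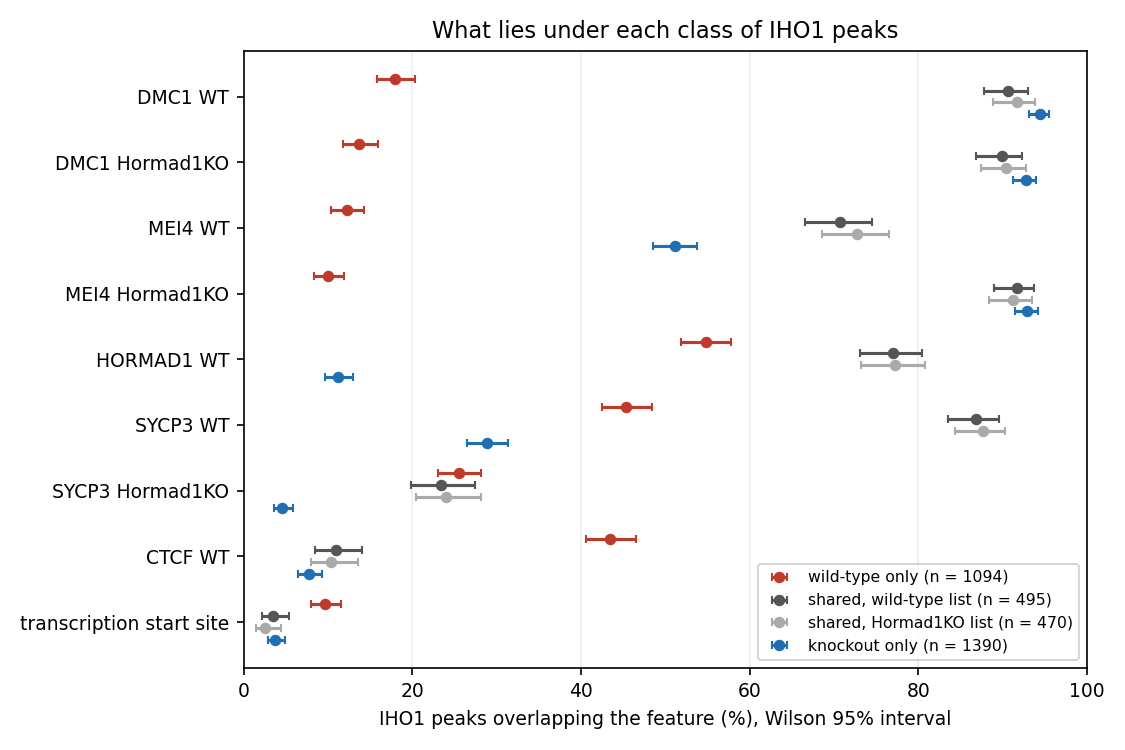
Share of IHO1 peaks of each class (x axis, percent, with Wilson 95% intervals) that overlap each feature (y axis) in the named list; colours give the 4 sets of peaks. Knockout-only peaks reach 94.4% at wild-type DMC1 hotspots but 11.2% at wild-type HORMAD1, while wild-type-only peaks reach 43.5% at CTCF.

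The axis proteins separated the knockout-only peaks from the shared ones. Wild-type HORMAD1 lay at 77.2% (73.2 to 80.8) of the shared Hormad1KO peaks and at 11.2% (9.67 to 13) of the knockout-only peaks, a difference of -66.0 points (-69.9 to -61.6). Wild-type SYCP3 followed the same order, at 87.7% of the shared and 28.8% of the knockout-only peaks (-58.8 points, -62.3 to -54.7). SYCP3 mapped in Hormad1KO itself lay at 24.0% of the shared and 4.60% of the knockout-only peaks (-19.4 points, -23.6 to -15.6). Most new IHO1 peaks in the knockout thus lay outside each of these lists taken singly. The share outside all of them was not counted, and no HORMAD1 list of Hormad1KO was analysed.

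MEI4 mapped in Hormad1KO did not follow that split. It lay at 91.3% (88.4 to 93.5) of shared and 92.9% of knockout-only IHO1 peaks, and the difference of 1.67 points (-0.995 to 4.82) was not called. It turned to -1.98 without the last 1 Mb of each chromosome and to -2.79 in the wider 50% of each IHO1 list, and was called under neither. MEI4 mapped in the wild type did follow it, at 72.8% of the shared peaks and 51.2% of the knockout-only ones (-21.5 points, -26.2 to -16.6). Hence 705 of the 1390 knockout-only peaks (50.7%) were at hotspots that already carried MEI4 in the wild type, and 577 (41.5%, 38.9 to 44.1) at hotspots with MEI4 in Hormad1KO and not in the wild type. Only 30 knockout-only peaks (2.16%) were at a hotspot with MEI4 in neither list. DMC1 mapped in Hormad1KO lay at 92.8% of knockout-only and 90.4% of shared peaks (2.38 points, -0.390 to 5.63, not called). The excess of knockout-only over shared peaks at wild-type hotspots was 2.69 points (0.139 to 5.73), but it was -3.26 (-4.91 to -1.15) without the last 1 Mb of each chromosome, so its direction rests on chromosome ends. MEI4 was called at these sites in Iho1KO too, at 85.3% of knockout-only and 86.2% of shared peaks (-0.846 points, -4.29 to 3, not called).

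The share of hotspots with an IHO1 call was highest at the strongest hotspots in both genotypes, and in Hormad1KO it reached further down the ranks. The deposited DMC1 value, whose unit the authors do not name, was used only to rank hotspots within a list. Of all 13808 wild-type hotspots, 4.14% held a wild-type IHO1 peak and 12.6% a Hormad1KO one. In the strongest of 10 equal classes, with DMC1 values from 1263 to 20822, the share with IHO1 was 36.8% (34.3 to 39.4) in the wild type and 73.3% (70.9 to 75.5) in Hormad1KO. In the next class down the wild type fell to 1.09% (15 of 1381 hotspots), whereas Hormad1KO held 31.1% (28.7 to 33.6). Hormad1KO had 12.8% in the eighth class and 5.43% in the seventh, against 0.579% and 0.362% in the wild type. MEI4, called at more hotspots in both genotypes, reached 64.9% of the strongest class in the wild type and 91.5% in Hormad1KO, and 31.9% and 71.2% of the next.

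**Figure D2:**
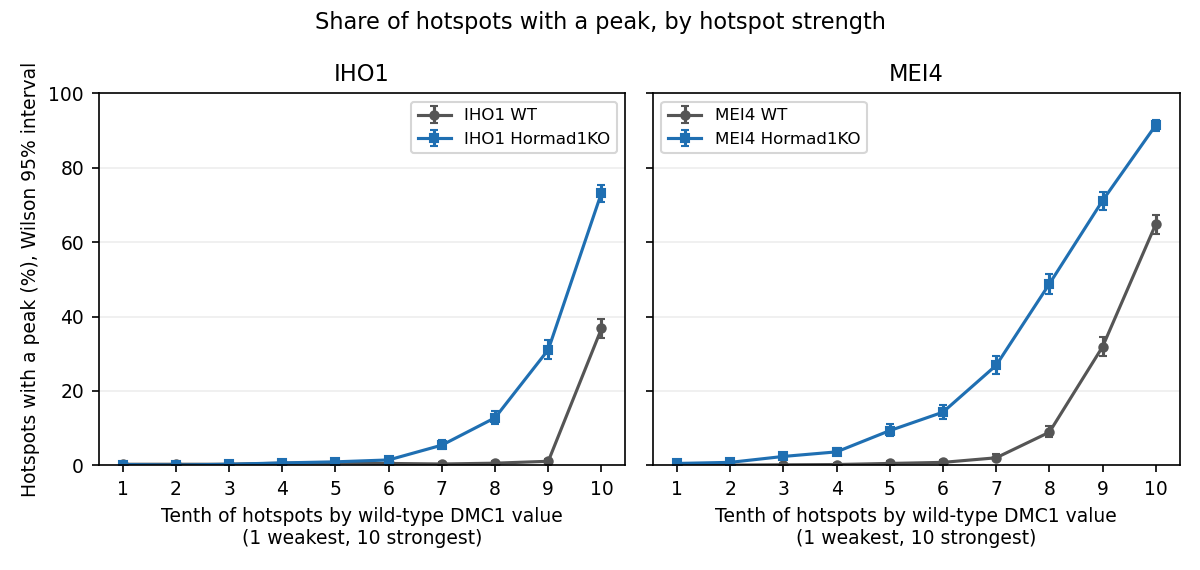
Share of wild-type DMC1 hotspots with an IHO1 peak (left) or a MEI4 peak (right), in percent with Wilson 95% intervals, across 10 equal classes of hotspots ordered by wild-type DMC1 value. In the ninth class IHO1 stands at 1.09% in the wild type and 31.1% in Hormad1KO.

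Median DMC1 values by class show the same ordering. Hotspots under shared Hormad1KO peaks stood at a median of 3820 on the wild-type DMC1 scale (95% interval of the median 3632 to 4092), at the 97.8th percentile of the list. Those under knockout-only peaks had 1165 (1098 to 1234), at the 89.1th percentile. The difference between these percentiles was 8.72. In the DMC1 list of Hormad1KO the medians were 504 (455 to 574) and 203 (189 to 216), at percentiles 89.7 and 76.9 of that list. How the 2 DMC1 lists were scaled is not stated, so their values are not compared with each other.

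How often a MEI4 hotspot also had IHO1 differed between the genotypes. In the wild type, 397 of 1513 hotspots with MEI4 had IHO1 as well (26.2%, 24.1 to 28.5), and in Hormad1KO 1686 of 3719 (45.3%, 43.7 to 46.9). Read from IHO1, 69.4% (65.5 to 73.0) of the hotspots with IHO1 had MEI4 in the wild type and 96.7% (95.8 to 97.5) in Hormad1KO. Within the strongest class, 42.3% of the MEI4 hotspots had IHO1 in the wild type and 78.2% in Hormad1KO. Within the next class these shares were 2.04% (9 of 441) and 42.3% (416 of 983).

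In the strongest class of hotspots, the share with IHO1 varied with HORMAD1 overlap in both genotypes, by more points in the wild type. There, hotspots with a wild-type HORMAD1 peak had IHO1 in 69.9% of cases in the wild type (395 of 565) and hotspots without one in 13.8% (113 of 816), a difference of 56.1 points (51.4 to 60.3). For Hormad1KO IHO1 the same hotspots gave 84.1% and 65.8%, a difference of 18.3 points (13.7 to 22.6). Hotspots without a HORMAD1 peak thus stood at 13.8% in the wild type and 65.8% in Hormad1KO, and those with one at 69.9% and 84.1%. Few hotspots of the next classes had HORMAD1. The wild-type difference was the smaller in the ninth class and the larger in the eighth, with wide and overlapping intervals in each. In the ninth class the difference was 22.0 points (9.37 to 42.7) in the wild type and 33.1 (12.3 to 49.9) in Hormad1KO, over 22 hotspots with HORMAD1. In the eighth it was 36.1 (14.9 to 64.3) and -3.76 (-11.5 to 24.9, not called), over 11. Within the strongest class, the 583 hotspots with IHO1 only in Hormad1KO had wild-type HORMAD1 in 23.0% of cases and the 429 with IHO1 in both had it in 79.5% (-56.5 points, -61.3 to -51.1). This class spans DMC1 values from 1263 to 20822. The part of hotspot strength within it in the HORMAD1 differences was not tested. All 583 had DMC1 in Hormad1KO, as did 427 of the 429. MEI4 of Hormad1KO was at 97.6% and 97.9% of these sets. At the 290 hotspots of that class with IHO1 in neither genotype, MEI4 of Hormad1KO was at 74.1% (68.8 to 78.8), DMC1 of Hormad1KO at 94.8% and wild-type HORMAD1 at 12.4%.

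The shape of IHO1 over a hotspot also differed. In 392 pairs of a wild-type and a Hormad1KO IHO1 peak that overlapped only each other and a single hotspot, the Hormad1KO peak was the narrower in 327 (83.4%, 79.4 to 86.8). The median width was 4611 bp (4386 to 4749) in the wild type and 2127 bp (2028 to 2260) in Hormad1KO, and the median log2 ratio of Hormad1KO to wild-type width was -0.73 (-0.84 to -0.65). In 241 of the 392 the Hormad1KO peak lay wholly inside the wild-type peak. Peak centres lay a median of 343 bp from the hotspot centre in the wild type and 176 bp in Hormad1KO. In 4 equal classes of DMC1 value the intervals of this ratio all lay below 0, with median log2 ratios between -0.86 and -0.57. The ratio was -0.74 (-0.89 to -0.67) at the 309 hotspots with a wild-type HORMAD1 peak and -0.51 (-0.78 to -0.30) at the 83 without, and these intervals overlap.

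Wild-type IHO1 peaks were closer in width to those of the axis proteins than to MEI4 peaks or the hotspots. Over the 391 hotspots of these pairs, taking those with a single peak of the list named, the median width was 4718 bp for wild-type IHO1, 5716 bp for wild-type HORMAD1 and 5585 bp for wild-type SYCP3. The number of hotspots with a single peak ran from 290 for HORMAD1 to 391 for DMC1. The median was 2130 bp for Hormad1KO IHO1, 2352 bp for Hormad1KO MEI4 and 2213 bp for the DMC1 hotspot. Wild-type MEI4, at 3073 bp, lay between these groups, and at the hotspots of this set where MEI4 was called in both genotypes it too was narrower in Hormad1KO in 70.6% (65.2 to 75.6) of 293. Over all 1405 matched MEI4 pairs the share was 47.9% (45.3 to 50.5), with medians of 1966 and 2044 bp and a median log2 ratio of 0.02 (-0.01 to 0.05). SYCP3 was also narrower in Hormad1KO, at 4800 against 5866 bp over 155 pairs. IHO1 was also narrower in Spo11KO, which shares the wild-type list: over 397 matched pairs the median width there was 1988 bp against 4476 bp in the wild type, narrower in 85.6% (81.9 to 88.8). Width follows peak calling as well as binding, and the part of depth or threshold in these widths was not tested.

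Coverage round the hotspot centre showed where the wild-type signal lay. Over the 446 hotspots with IHO1 in both genotypes, wild-type IHO1 peaks covered the centre in 81.8%, positions 600 bp to either side in 74.2% and 74.4%, and positions 2000 bp to either side in 74.7% and 72.2%. Hormad1KO IHO1 covered the centre in 98.2%, and the positions at 2000 bp in 15.9% and 16.1%. Wild-type SYCP3 at 2000 bp covered 83.2% and 84.1%, and Hormad1KO MEI4 10.8% and 9.42%. The wild-type IHO1 profile therefore stayed high out to about the reach of the axis proteins, with shallow dips beside the centre, while the Hormad1KO profile fell off near the distance at which MEI4 did.

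**Figure D3:**
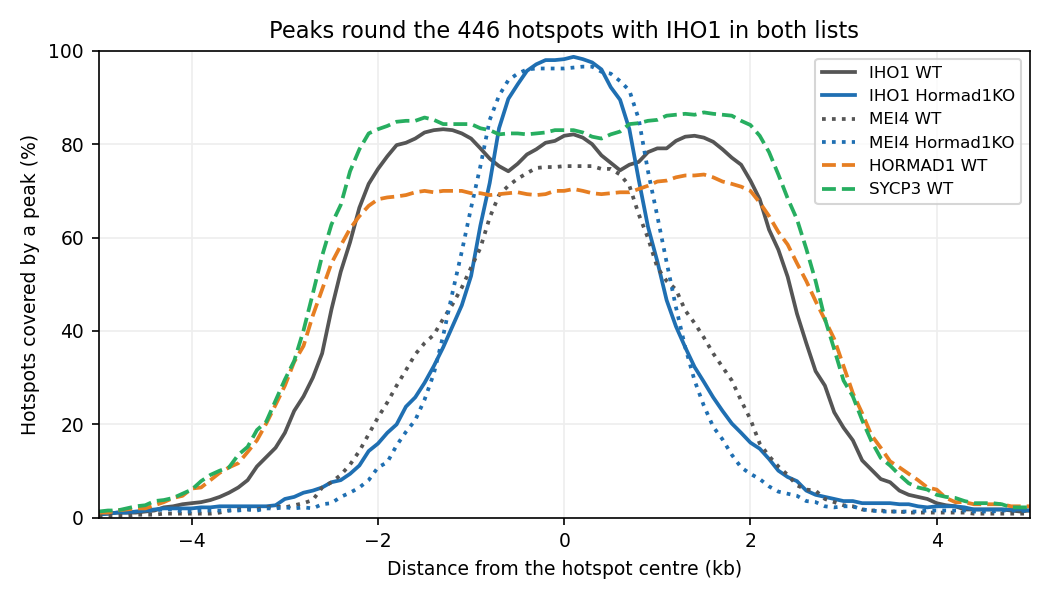
Percent of the 446 hotspots with IHO1 in both genotypes (y axis) that a peak of each list covers at each distance from the hotspot centre in kb (x axis). At 2000 bp from the centre wild-type IHO1 still covers 74.7% and 72.2% of the hotspots and Hormad1KO IHO1 15.9% and 16.1%.

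At some hotspots wild-type IHO1 was called as separate pieces. Of 572 hotspots with wild-type IHO1, 72 (12.6%) carried 2 or more separate IHO1 peaks. HORMAD1 did so at 9.09% and SYCP3 at 11.7% of their wild-type hotspots, and MEI4 at 0 of 1513. In Hormad1KO, 1 of 1743 hotspots with IHO1 was split in this way. Among the 446 hotspots with IHO1 in both genotypes, 56 were split in the wild type and 1 in Hormad1KO.

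Some wild-type-only peaks at hotspots lay beside a Hormad1KO peak. There were 196 at hotspots, and 55 (28.1%, 22.2 to 34.7) lay at a hotspot where Hormad1KO had an IHO1 peak that did not touch them. Since Hormad1KO peaks nearly always covered the hotspot centre, the rule of no overlap places nearly all of these 55 off the centre. Of the 141 at hotspots without Hormad1KO IHO1, 85 (60.3%, 52.0 to 68.0) covered the centre. The median distance between peak centre and hotspot centre was 1350 bp (1266 to 1428) for the 196 wild-type-only hotspot peaks, the 55 included, 418 bp (354 to 475) for the shared wild-type peaks, 176 bp (161 to 208) for the shared Hormad1KO peaks and 132 bp (124 to 146) for the knockout-only peaks. A peak labelled wild-type only is therefore not always a hotspot that lost IHO1: by hotspot rather than by peak, 446 hotspots had IHO1 in both genotypes, 126 in the wild type only and 1297 in Hormad1KO only.

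The 1 bp rule placed few peaks near its edge. The smallest overlaps of shared wild-type peaks were 2, 31 and 37 bp, with a median of 1830 bp, and the smallest gaps of wild-type-only peaks to the Hormad1KO list were 14, 69 and 93 bp. Of the wild-type-only peaks 107 (9.78%) lay under 1000 bp from a Hormad1KO peak, and of the knockout-only peaks 46 (3.31%) lay under 1000 bp from a wild-type one. The median gap to the other list was 322 kb for wild-type-only and 527 kb for knockout-only peaks.

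Wild-type-only hotspot peaks overlapped MEI4 peaks and DMC1 hotspots of Hormad1KO less often than shared hotspot peaks did. Of the 196 peaks, 141 (71.9%) were at DMC1 hotspots of Hormad1KO and 96 (49.0%) at Hormad1KO MEI4 peaks, against 98.2% and 96.7% of the 449 shared hotspot peaks (-26.3 points, -33.0 to -20.2, and -47.7 points, -54.7 to -40.4). The 196 include the 55 that lay beside a Hormad1KO IHO1 peak at the same hotspot, nearly all of them off its centre. For those 55 the class rule itself limits overlap with MEI4 peaks, which lay mostly over the centre. The counts are thus of peaks and not of hotspots without MEI4. Both DMC1 and MEI4 overlapped 87 peaks, DMC1 alone 54, MEI4 alone 9 and neither 46 (23.5%, 18.1 to 29.9). Those 46 were at weaker hotspots than the 87, with a median wild-type DMC1 value of 191 beside 2712. The median of all 13808 wild-type hotspots was 129. Counted by hotspot, DMC1 was found in Hormad1KO at 97.8% of the 1297 hotspots with IHO1 in the knockout only and at 71.4% of the 126 with IHO1 in the wild type only, a difference of 26.4 points (19.2 to 34.9). In the strongest class, which held 79 of the 126, DMC1 was found at 96.2% (89.4 to 98.7) of these 79. It was found at all 583 of that class with IHO1 in Hormad1KO only. That class left little room for a gap, since 98.6% of all its hotspots had DMC1 in Hormad1KO. In the ninth class the share was 57.1% (4 of 7) with IHO1 in the wild type only. There it was 98.8% (416 of 421) with IHO1 in Hormad1KO only. The part of hotspot strength in the difference of 26.4 points was not tested. MEI4 of Hormad1KO was at 58.7% of the 126 and 75.9% of the 79, and at 96.7% of the 1297 and 97.6% of the 583.

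Whether a wild-type hotspot peak was found without HORMAD1 varied with its partners. With a wild-type HORMAD1 peak, 355 of 471 hotspot peaks were found (75.4%), and without one 94 of 174 (54.0%), a difference of 21.3 points (13 to 29.6). Hotspot peaks that overlapped HORMAD1 in the wild type were thus found more often, not less, in the HORMAD1 knockout. With wild-type MEI4 the found share was 81.5% of 410 and without it 48.9% of 235, a difference of 32.5 points (25 to 39.7). In the wider 50% of each IHO1 list the MEI4 difference was 14.5 points (4.29 to 24.5) and the HORMAD1 difference 21.8 (10.7 to 32.4). Shared wild-type hotspot peaks had a median width of 4341 bp and wild-type-only ones 1987 bp. A wide peak meets the 1 bp rule more easily, and the part of width was not tested. Split by MEI4, the HORMAD1 difference was 16.4 points (7.23 to 26.4) among peaks with MEI4 and 24.9 points (11.1 to 37.1) among those without. Split by 4 equal classes of DMC1 value it was 6.55, 20.5, 5.95 and 19.3 points from the weakest to the strongest, and only the second and the fourth were called. The MEI4 difference was called in all 4 classes, at 40.7, 34.0, 22.7 and 14.2 points. The found share itself was 46.3%, 71.4%, 87.0% and 73.9% across these classes, so the strongest hotspots did not have the highest share. In all these splits the peaks not found include the 55 that lay beside a Hormad1KO IHO1 peak at the same hotspot. Counted by hotspot, wild-type MEI4 was at 75.3% of the 446 with IHO1 in both genotypes. It was at 48.4% of the 126 with IHO1 in the wild type only. For wild-type HORMAD1 these shares were 78.9% and 60.3%.

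Away from hotspots the found share was low with or without CTCF and HORMAD1. Among the 284 such peaks with both CTCF and HORMAD1, 13 were found (4.58%, 2.69 to 7.67). The shares were 3.23% of 186 with CTCF alone, 5.75% of 226 with HORMAD1 alone and 5.65% of 248 with neither. The HORMAD1 difference among all 944 was 0.490 points (-2.39 to 3.27), not called. It was called at 3.47 points (0.513 to 6.34) when an overlap had to reach 50% of the shorter interval, and it was -0.999 without the last 1 Mb of each chromosome. The CTCF difference was -1.65 points (-4.51 to 1.15), not called, and -3.36 (-5.76 to -1.47) without those chromosome ends. Wild-type MEI4 did divide these peaks: 16 of 74 with it were found (21.6%) and 30 of 870 without it (3.45%), 18.2 points apart (10.2 to 28.9). Of the 74, 57 lay in the last 1 Mb of a chromosome, where 24.6% were found with MEI4 and 31.9% without (-7.35 points, -24.4 to 9.68, not called). Elsewhere 2 of 17 were found with MEI4 and 15 of 823 without (9.94 points, 1.39 to 32.5).

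**Figure D4:**
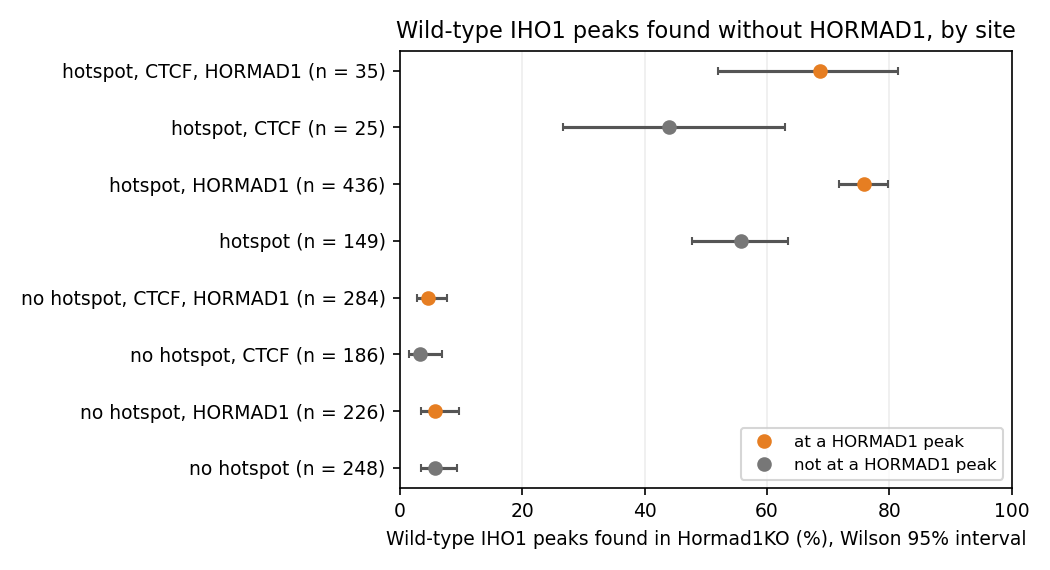
Percent of wild-type IHO1 peaks found in Hormad1KO (x axis, Wilson 95% intervals) for each combination of wild-type hotspot, CTCF and HORMAD1 overlap (y axis, with the number of peaks). Hotspot peaks range from 44.0% to 75.9% and all other combinations from 3.23% to 5.75%.

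Wild-type IHO1 at CTCF lay mainly at strong CTCF peaks, and few of these had IHO1 in Hormad1KO. With all CTCF peaks put in 4 equal classes by score and those away from hotspots kept, the class with the highest scores (2.89 to 37.3) held wild-type IHO1 at 4.27% (335 of 7846), and the lowest class at 0.302% (24 of 7940). In Hormad1KO these shares were 0.140% (11 peaks) and 0.0630% (5 peaks). The highest class thus held 335 CTCF peaks with IHO1 in the wild type, 11 in Hormad1KO and 7 in both. CTCF sites under wild-type-only peaks had a median score of 3.78 (3.60 to 3.90), at the 89.1th percentile of the CTCF list. Those under shared wild-type peaks had 2.00 (1.68 to 2.29) and those under knockout-only peaks 1.95 (1.71 to 2.09), at percentiles 52.3 and 51.0. The knockout-only peaks at CTCF therefore sat at middling CTCF sites, and 97 of the 108 were also at hotspots.

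Start sites of genes lay under 105 of the 1094 wild-type-only peaks (9.60%, 7.99 to 11.5), beside 3.43% of the shared peaks, a difference of 6.16 points (3.60 to 8.45). At hotspots the shares were 7.65% and 2.67% (4.98 points, 1.44 to 9.71). Away from hotspots, where most wild-type-only peaks lay, they were 10.0% and 10.9% (-0.847 points, -13.1 to 5.65, not called). Only 46 shared peaks lay there, so that interval is wide. The excess was thus called at hotspots and not away from them, and the part of the different hotspot shares in it was not tested. The share was 3.74% for knockout-only peaks, 1.19 points above the shared Hormad1KO peaks (-0.865 to 2.76, not called). Axis proteins were still called in part at the wild-type-only sites in Hormad1KO: SYCP3 of Hormad1KO lay at 27.8% (25 to 30.9) of the 898 wild-type-only peaks away from hotspots, where wild-type SYCP3 lay at 40.2%. HORMAD1 mapped in Iho1KO, without IHO1, lay at 49.6% of all wild-type-only and 14.9% of shared wild-type peaks (34.7 points, 30.2 to 38.8). Split by site, that HORMAD1 difference was 1.24 points (-4.01 to 7.33) at hotspots and 14.1 (-0.547 to 27.7) away from them, called in neither. With 46 shared peaks away from hotspots, the second value leaves a wide range.

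The same wild-type peaks had different fates in the other knockouts, which share the wild-type list and the subtracted control with this comparison. Of the hotspot peaks, 69.6% were found in Hormad1KO, 69.3% in Spo11KO, 3.26% in Mei4KO and 2.02% in Prdm9KO. Of the 944 other peaks, 4.87% were found in Hormad1KO, 37.1% in Spo11KO, 45.4% in Mei4KO and 28.0% in Prdm9KO. For the 284 with CTCF and HORMAD1 the shares were 4.58%, 54.6%, 73.2% and 43.3%. Hormad1KO was the knockout of these 4 in which the CTCF and axis sites were least often called and its share at hotspots was close to that of Spo11KO. Of the Hormad1KO peaks, 84.5% of the shared and 61.9% of the knockout-only ones were in the Spo11KO IHO1 list, 22.5 points more for the shared ones (18.2 to 26.5).

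**Figure D5:**
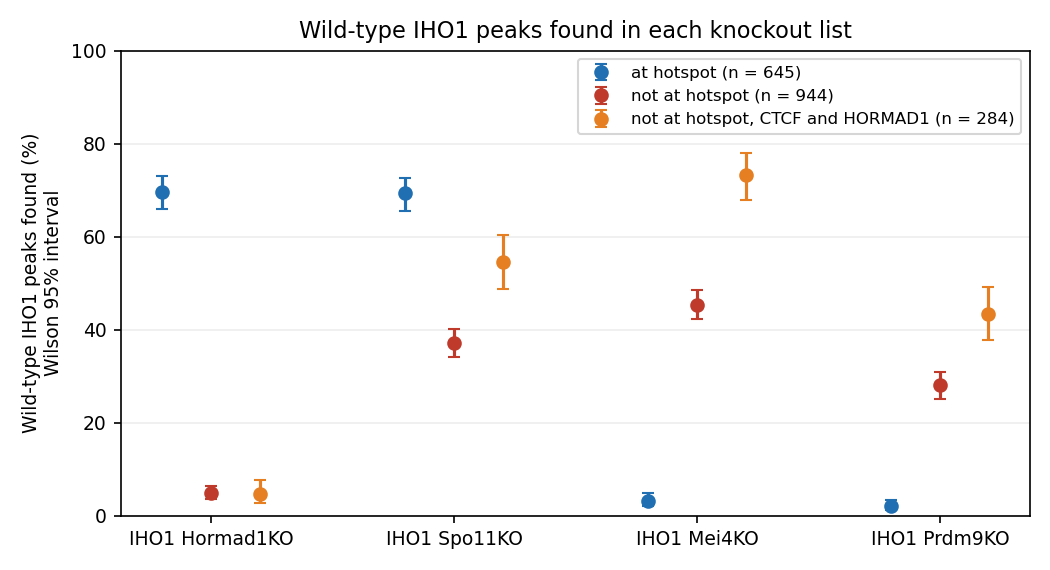
Percent of wild-type IHO1 peaks (y axis, Wilson 95% intervals) found in the IHO1 list of each knockout (x axis), for 645 peaks at hotspots, 944 away from hotspots and the 284 of these with CTCF and HORMAD1. In Hormad1KO and Mei4KO the order of hotspot and other peaks is opposite, at 69.6% and 4.87% against 3.26% and 45.4%.

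Chromosome ends held most of the wild-type peaks that were found without a hotspot. Of 46 such peaks, 19 lay in the last 1 Mb of X and Y and 10 in the last 1 Mb of chromosomes 4, 9 and 13, measured from the most distal peak of any list. The pseudoautosomal region, where X and Y pair and recombine, lies at the distal end of both, and the distal ends of chromosomes 4, 9 and 13 are known to share a repeat with it. The found share was 54.3% (38.2 to 69.5) of 35 peaks at the X and Y ends, 14.5% (8.07 to 24.7) of 69 at the other ends and 2.02% (1.27 to 3.22) of 840 elsewhere. The ends together exceeded the rest by 25.9 points (18.1 to 35.2). Of the 19 found peaks at the X and Y ends, 15 overlapped SYCP3 and 8 MEI4 of Hormad1KO. The DMC1 lists hold no hotspot on Y, so no Y peak could count as a hotspot peak. Reads from repeats can be placed at more than 1 site, and their part in these counts was not tested.

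Across the 19 autosomes the found share of hotspot peaks had a median of 69.8%, from 50% on chromosome 15 to 95.0% on chromosome 14. The share of Hormad1KO peaks that were knockout only ran from 63.4% to 84.4%. On X, 24 of 38 hotspot peaks were found (63.2%), -6.86 points from the autosomes (-23.1 to 7.12, not called). Within the strongest class of hotspots, IHO1 of Hormad1KO was at 63.9% of 72 on X and at 73.8% of 1309 on autosomes (-9.91 points, -21.7 to 0.513, not called).

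Single sites illustrate the classes, by position on mm10 with genes from RefSeq, whose table gives gene spans and no exons. The 3 shared peaks at the strongest hotspots were all within genes. At chr11:89607570-89616591 in Ankfn1 the wild-type peak of 9022 bp met a Hormad1KO peak of 5718 bp, over a hotspot with a wild-type DMC1 value of 20822. At chr2:38136911-38141589 in Dennd1a, a regulator of Rab35, the widths were 4679 and 4945 bp over a value of 20514. At chr1:68485797-68492006 in Erbb4, a neuregulin receptor, they were 6210 and 2557 bp over 18961. All 3 overlapped HORMAD1, MEI4 and SYCP3 in the wild type.

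Of the wild-type-only hotspot peaks with the highest DMC1 values, 2 are given here, and both lacked a HORMAD1 peak and had SYCP3 in the wild type. One, chr13:25992059-25992950, was 892 bp wide and lay 722063 bp from Nrsn1, the nearest protein-coding gene, at a hotspot of value 12658. The other, chrX:42213366-42214983 in Stag2, which encodes a cohesin subunit, was 1618 bp wide at a hotspot of value 11624, and MEI4 of Hormad1KO was called there.

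Among wild-type-only peaks away from hotspots and at a wild-type HORMAD1 peak, the 3 with the highest CTCF scores are given here. All 3 peaks also overlapped every knockout HORMAD1 list analysed. All were narrower than the median of 1850 bp for wild-type-only peaks away from wild-type hotspots. They were chr13:13888829-13890217, 60934 bp from Gng4, with a score of 13 and a width of 1389 bp, chrX:150477779-150479162 over Tmem29 and Apex2, with 10.6 and 1384 bp, and chr5:130852684-130854295 over the non-coding Gm40337, with 8.76 and 1612 bp. HORMAD1 in the wild type and no IHO1 call in Hormad1KO were terms of the choice. HORMAD1 was also called at all 3 in Prdm9KO, Spo11KO, Mei4KO and Iho1KO, and SYCP3 was called at all 3 in Hormad1KO. At the chr13 site IHO1 was called in Prdm9KO, Spo11KO and Mei4KO, and at the chrX and chr5 sites in none of these. Wild-type SYCP3 was called at the chr13 site only.

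The knockout-only peaks with the highest Hormad1KO DMC1 values were broad for their class, whose median width was 1641 bp (1607 to 1677). At chr4:139204316-139209960 in Capzb, which encodes an actin-capping subunit, the peak was 5645 bp wide and the Hormad1KO DMC1 value 6571. At chr6:37777822-37781685, 89126 bp from Trim24, they were 3864 bp and 4860, and at chr8:36569054-36573746 in Dlc1 4693 bp and 3879. MEI4 and SYCP3 of Hormad1KO lay at all 3, and IHO1 was called at all 3 in Spo11KO. In axis proteins these sites were not typical of their class, since SYCP3 of Hormad1KO lay at 4.60% of all knockout-only peaks. Wild-type HORMAD1 lay at the sites in Capzb and near Trim24, and at 11.2% of all knockout-only peaks.

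Of the widest shared peaks at no hotspot, 2 are given here, and they differed in how their width compared between the genotypes. The site chr9:124049064-124061346, near Ccr3, lay in the last 1 Mb of chromosome 9, an end named above as sharing a repeat. There the wild-type peak of 12283 bp met a Hormad1KO peak of 2642 bp. At chrY:90796675-90813047, at the Y end, the widths were 16373 bp in the wild type and 16459 bp in Hormad1KO. HORMAD1, MEI4 and SYCP3 were called at both in the wild type.

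Only 72 knockout-only peaks (of 1390) lay at no hotspot of either DMC1 list. MEI4 of Hormad1KO lay at 18 of them (interval 16.4 to 36.1%), SYCP3 of Hormad1KO at 13 and a start site at 19 (26.4%, 17.6 to 37.6), while 27 (37.5%) had none of MEI4 or SYCP3 of Hormad1KO, CTCF, HORMAD1 or a start site. The widest were chr9:123833027-123846935 over Fyco1 (13909 bp), chr9:66392865-66401286 in Herc1 (8422 bp) and chr2:37396540-37403693 in Rc3h2 (7154 bp). The first overlapped MEI4 of Hormad1KO and a start site, and the other 2 overlapped none of these features. The Fyco1 peak also overlapped the IHO1 list of Prdm9KO and lay in the last 1 Mb of chromosome 9, an end named above as sharing a repeat.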

How the data were processed

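Peak lists were used as deposited, 1 per group. Bowtie2, MACS2 and build mm10 are named in the submitters' processing notes. Their versions and roles, the thresholds, and whether replicates were pooled are not given in the sources used here. The authors state in the series' design text that each protein's own knockout was subtracted. The MEI4, IHO1, HORMAD1 and SYCP3 lists carry positions only. The deposited DMC1 lists add a signal value per hotspot, in multiples of 0.5, and the deposited CTCF list a score per peak, with 192 scores below 0. Both served here for ranking and filtering inside their own list and nothing else. The files give no read counts, so depth is unknown.

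Intervals were compared by position in Python 3.11.15 with pandas 2.3.3 and scipy 1.17.1. Overlap meant 1 bp or more. Shares have Wilson 95% intervals, differences of shares Newcombe 95% intervals, and medians binomial order-statistic 95% intervals, all treating peaks as independent. The overlap and interval code was tested on simulated data. Start sites and promoters come from RefSeq, GRCm38.p6. Named sites were, leaving out chromosome 18, the 3 per rule with the highest wild-type DMC1 value (shared, and wild-type only at hotspots), the highest CTCF score (wild-type only, with HORMAD1, at no hotspot), the highest Hormad1KO DMC1 value (knockout only), or the largest width (shared, and knockout only, at no hotspot). Some of these sites are not reported here. The members and lists were chosen with earlier results of these data known. Hotspot-level, width, coverage, split-peak, promoter and chromosome-end values were added after the data were examined. Alternatives were an overlap of 50% of the shorter interval, the central 1 kb of each IHO1 peak, autosomes only, the wider 50% of each IHO1 list, gaps up to 1 kb, the stronger 50% of hotspots, the higher-scoring 50% of CTCF peaks and, added after seeing the data, leaving out IHO1 peaks in the last 1 Mb of each chromosome.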

Additional observations from a re-analysis of the deposited data

How the results depend on the processing

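No paired analysis was possible because each IHO1 group has 1 list, and for the same reason no replicate could be left out. Of 112 alternative values of 17 results, 82 kept the direction and the call, or, for the shares and the percentile difference, stayed within the main interval, and 9 results did so under every alternative. The share of wild-type peaks found in Hormad1KO was 27.9% with the stricter overlap, 24.5% with central 1 kb windows, 35.7% in the wider peaks and 37.9% with gaps of up to 1 kb. The share of Hormad1KO peaks found in the wild type was 20.8%, 30.8% and 27.7% under the last 3. The percentile difference of DMC1 between shared and knockout-only peaks was 7.03 in the wider peaks.

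Small differences were not stable. For HORMAD1 away from hotspots the difference in found share was 3.47 with the stricter overlap and 5.29 in the wider peaks, both called, and -0.446 with central windows, -0.193 on autosomes and -0.999 without chromosome ends. For CTCF it was -4.39 with the stricter overlap, -3.78 on autosomes, -3.44 with higher-scoring CTCF peaks and -3.36 without chromosome ends, all called, and 0.400 in the wider peaks. Knockout-only minus shared peaks at wild-type hotspots gave 1.76 with central windows, 0.165 on autosomes and 1.95 with stronger hotspots, none called, -0.694 in the wider peaks and -3.26 without chromosome ends. At Hormad1KO hotspots the difference was 3.21 (called) with the stricter overlap, -0.0731 on autosomes, -0.266 in the wider peaks, -4.27 with stronger hotspots and -3.66 without chromosome ends. At Hormad1KO MEI4 peaks it was -2.79 in the wider peaks and -1.98 without chromosome ends. The stricter settings keep fewer peaks or overlaps by construction. Beyond that the cause was not tested. Depth is unknown, so weak peaks absent from a list cannot be told from peaks below its threshold.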

Other observations

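The order of rows in the IHO1 lists, whose meaning no source used here states, went with hotspot strength and with peak width. Across 645 wild-type and 1743 Hormad1KO peaks at hotspots, Spearman's rho between row number and wild-type DMC1 value was -0.60 and -0.55, so earlier rows lay at stronger hotspots. Between row number and peak width, over all 1589 and 1860 peaks, it was -0.35 and -0.60. Peaks of 1 library share depth and are not independent, and no test was made. Shared peaks had a median row of 406 of 1860 in the Hormad1KO list and knockout-only peaks 1080.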
